A study of Mus musculus with 6 samples.

Results

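Cell adhesion molecules of MOC2 cells, several of which serve as surface markers of tumour stem cells, were followed in 6 libraries. The set held 10 genes, taken by symbol from the 55418 gene symbols of the count table: Cd44, Alcam, Epcam, Ly6a, Icam1, Vcam1, Mcam, L1cam, Bcam and Cadm1. All 10 were found, and all 10 passed the filter on low counts, which left 15199 genes for testing. MOC2 cells come from an oral squamous carcinoma of the mouse and are labelled as negative for papillomavirus. The control group was 3 samples of MOC2 cells given a control CRISPR edit, and the other was 3 samples of the H3 clone of MOC2 cells labelled EphA4 knockout. All 6 samples were untreated and carried 1 batch label. All were grown in the same serum-containing medium with EGF, hydrocortisone and insulin, and were harvested as monolayers after 2 passages from thawing. The knockout group is 1 clone, so that an effect of the edit and a property of the clone cannot be told apart. Whether the 3 samples of a group were separate cultures is not given in the labels, and the p-values rest on the spread of these samples alone, which can be a technical one.

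Adhesion molecules at the cell surface hold cells to each other or to matrix, and many also pass signals inward. Most of the molecules followed here belong to the immunoglobulin superfamily, whose members bind copies of themselves, other immunoglobulin-type proteins, integrins or laminins. CD44 is instead a receptor for hyaluronan, EpCAM is an epithelial glycoprotein, and Ly6a, also called Sca-1, is a small protein anchored in the membrane by a lipid. In squamous carcinoma of the head and neck, high CD44 has been used to sort cells with tumour-initiating capacity, and ICAM-1 and VCAM-1 are known as inducible ligands for leukocyte integrins.

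Of the 10 members, 8 had lower and 2 had higher transcript levels in the knockout-labelled libraries than in control. Alcam and Vcam1 fell furthest, Mcam, L1cam and Icam1 fell by several fold, and Bcam, Ly6a and Epcam fell less. Cd44 and Cadm1 rose, by less than any member fell. All 10 passed an adjusted p of 0.05 in edgeR's quasi-likelihood test, a call that 71.5% of all tested genes received, 38.8% as lower and 32.7% as higher. Control and knockout-labelled libraries were fully separate for all 10, and for 76.1% of all tested genes. A call by itself thus did not set the members apart from other genes. The median log2 fold change was -1.96 over the members and -0.04 over all tested genes. Log2 fold changes of -2 or lower were found for 5 of the 10 members and for 12.1% of all tested genes. The members were chosen with earlier results of these data known, so these contrasts describe the set and do not test it.

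**Figure D1:**
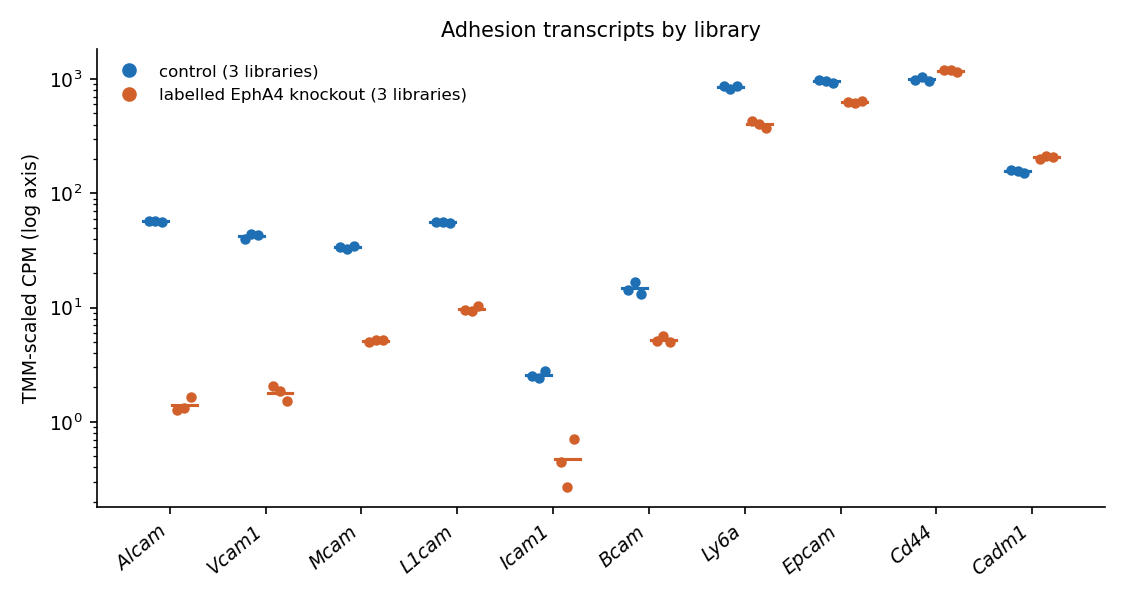
Level of each member in each library as TMM-scaled CPM on a log axis. Points are libraries, 3 per group, and bars are group means. Cd44 and Cadm1 are the 2 genes whose orange points lie above the blue ones, and Alcam and Vcam1 show the widest gaps.

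Library totals ran from 35115926 to 41775031 counts, so that 1 count equalled 0.0239 to 0.0285 CPM (the library's counts scaled to a common total), and the 10 members took 0.31% to 0.321% of all counts in control and 0.238% to 0.247% in the knockout-labelled libraries. Transcripts of the edited gene Epha4 were not lower, with 1907, 2110 and 2250 counts in control and 3483, 3815 and 3606 in those labelled knockout. A count over the gene cannot show the edit or the protein, so the label was not tested by it. Every direction given is thus that of the libraries labelled EphA4 knockout, and not of a loss of Epha4 transcript. EphA4 knockout replicate 3 stood apart from the other 2 of its group, with a chi-square per degree of freedom of 34.1 to 35.1 against 4.63 to 9.54 for the other pairs within a group. Without it, 8 members were again lower and 2 higher in edgeR, with log2 fold changes of 0.33 for Cd44, 0.45 for Cadm1, -0.57 for Epcam, -0.98 for Ly6a, -1.40 for Bcam, -2.52 for L1cam, -2.67 for Mcam, -2.78 for Icam1, -4.39 for Vcam1 and -5.40 for Alcam. Of the markers listed for the carcinoma cells, the epithelial genes Krt8, Krt18 and Cdh1 were abundant in both groups. Their group means were 842.9 CPM or more for the keratins and 724.6 CPM or more for Cdh1. These genes do not by themselves show squamous identity. The basal squamous markers Krt5 and Trp63 were nearly absent, each with at most 2 counts in any library. Krt14, also a basal marker, was low and fell from 3.72 ± 0.258 to 1.83 ± 0.599 CPM, while Krt6a, a keratin of activated epithelium, rose from 0.271 ± 0.071 to 1.91 ± 0.019 CPM (SD, n = 3 each).

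Promoter windows were matched by symbol for 7 of the 10 members in a RefSeq table of build GRCm38.p6, from 250 bases before to 50 bases after the annotated start. Ly6a, Vcam1 and Cadm1 had no entry. The windows of Alcam, Icam1, Epcam and Cd44 are shown because they span the range of responses, from the furthest fall to a rise, with CpG dinucleotides in capitals.
Alcam promoter window, chr16:52453032-52453331, - strand: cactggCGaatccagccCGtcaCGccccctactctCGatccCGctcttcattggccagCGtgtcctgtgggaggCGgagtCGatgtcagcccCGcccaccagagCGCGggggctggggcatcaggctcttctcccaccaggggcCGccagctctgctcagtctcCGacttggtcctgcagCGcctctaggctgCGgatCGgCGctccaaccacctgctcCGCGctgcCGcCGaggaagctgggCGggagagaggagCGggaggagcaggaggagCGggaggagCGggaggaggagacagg
Icam1 promoter window, chr9:21015690-21015989, + strand: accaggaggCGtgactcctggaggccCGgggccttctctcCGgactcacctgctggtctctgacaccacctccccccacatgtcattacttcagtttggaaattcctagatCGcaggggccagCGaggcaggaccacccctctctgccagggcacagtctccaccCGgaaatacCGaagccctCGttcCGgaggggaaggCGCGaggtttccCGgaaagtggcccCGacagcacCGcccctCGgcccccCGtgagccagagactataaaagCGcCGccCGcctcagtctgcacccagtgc
Epcam promoter window, chr17:87635729-87636028, + strand: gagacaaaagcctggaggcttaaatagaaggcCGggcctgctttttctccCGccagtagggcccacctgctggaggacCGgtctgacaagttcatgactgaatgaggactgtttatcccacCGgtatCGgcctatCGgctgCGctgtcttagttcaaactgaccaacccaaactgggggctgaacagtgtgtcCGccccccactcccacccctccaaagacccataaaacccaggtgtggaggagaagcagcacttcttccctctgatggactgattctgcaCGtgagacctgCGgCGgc
Cd44 promoter window, chr2:102901616-102901915, - strand: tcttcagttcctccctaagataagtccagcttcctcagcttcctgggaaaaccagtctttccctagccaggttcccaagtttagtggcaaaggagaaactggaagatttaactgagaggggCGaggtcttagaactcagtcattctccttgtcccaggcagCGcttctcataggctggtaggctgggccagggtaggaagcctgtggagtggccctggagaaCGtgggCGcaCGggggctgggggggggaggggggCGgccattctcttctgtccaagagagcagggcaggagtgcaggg

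The windows differed in their CpG content. Those of Mcam, Bcam and Alcam held 29, 27 and 25 CpG dinucleotides, the 2 windows of L1cam held 25 and 22, and that of Icam1 held 19. Epcam had 11 and Cd44 had 6, where the median over 32841 windows of the table was 7. G+C content ran from 57.0% in Epcam and 58.0% in Cd44 to 72.7% in Mcam, against a median of 52.7%. The letters GGGNNTTCC (NF-kB), GAAANNGAA (interferon response) and TGANTCA (AP-1), searched on both strands, were in none of the members' windows. They are in 5.82%, 8.56% and 7.81% of all windows. TATAAA was in 13.6% of all windows and, among the members, in that of Icam1. There it began at position 14 after the annotated start and not before it. A letter match is a description of the sequence, and no match says only that these letters are not in this window. Other spellings of these sites were not searched. GGAAATTCC in the Icam1 window, for example, is not covered by GGGNNTTCC.

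Cd44, the hyaluronan receptor, was the most abundant member by mean CPM in both groups, ahead of Epcam in all libraries but control replicate 1, and rose slightly. It had 973, 1039 and 964.4 CPM in the control libraries and 1197, 1199 and 1156 CPM in the knockout-labelled ones. The highest control library lay below the lowest knockout-labelled one. The rise was 1.19-fold, a log2 fold change of 0.25 (SE 0.04, 95% interval 0.16 to 0.35, adjusted p = 0.000575 in edgeR). It lay at percentile 62.8 of the log2 fold changes of all tested genes, which is close to the middle of them. The annotation gives Cd44 9 transcripts, and a count over the gene does not separate the standard form from the variant forms used as stem cell markers.

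Epcam, the homotypic adhesion protein of epithelia and a common carcinoma marker, fell. Its CPM were 980.7, 960.3 and 920.5 in control, against 624, 612.2 and 643.7 in those labelled knockout. No library of 1 group reached the range of the other. Epcam was 1.52-fold lower (log2 fold change -0.61, SE 0.04, edgeR adjusted p = 1.36e-06). Cd44 and Epcam, nearly equal by CPM in control, were thus parted in the knockout-labelled cells. The ratio of Cd44 to Epcam per length, which needs no scaling between libraries, was 0.321, 0.351 and 0.339 in the control libraries and reached 0.621, 0.634 and 0.582 in the others. Its log2 moved from -1.57 ± 0.063 to -0.71 ± 0.065 (SD, n = 3 each), a difference of 0.86. An exact two-sided permutation test gave p = 0.1, the smallest value that 3 against 3 allows.

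Ly6a, an interferon-inducible marker of mouse haematopoietic stem cells that is also used for tumour-initiating cells, fell by 2.12-fold. It had 871, 819.5 and 862 CPM in control and 425, 403 and 375 CPM in the knockout-labelled libraries, and the groups were far apart. On the log2 scale this was -1.08 (SE 0.05, edgeR adjusted p = 2.01e-07). Of the 1297 stretches of 50 bases in its annotated transcripts, 19.0% also occur in transcripts of other genes, 195 of them in Ly6c1, so that reads of the family can be divided differently between its members. The counts of Ly6a, Ly6c1, Ly6c2 and Ly6i together fell as well, from 1797 ± 40.6 to 639.7 ± 36.8 CPM by library totals (SD, n = 3 each). That is 2.81-fold lower, with an exact two-sided permutation p of 0.1, the smallest possible. This exact permutation test and those of 3 ratios between members form a family of 4, each with p = 0.1 before and after Benjamini-Hochberg adjustment.

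Alcam, or CD166, binds copies of itself and the T cell protein CD6, and has been used as a stem cell marker in several carcinomas. It had 57.1, 57.7 and 56.7 CPM in control and 1.26, 1.33 and 1.66 CPM in the knockout-labelled libraries. In counts this was 2117, 2038 and 2362 against 45, 49 and 61. Alcam thus stayed detectable in every knockout-labelled library, at a level 40.3-fold lower. The log2 fold change was -5.33 (SE 0.10, 95% interval -5.56 to -5.10, adjusted p = 1.89e-09 in edgeR), the largest of the 10 in size and rank 538 from the lowest among all tested genes. Against Cd44 per length, Alcam went from a ratio of 0.0528 to 0.0559 in control to 0.001 to 0.00137, a log2 difference of -5.60. The 2 markers are often used side by side, and here their transcripts moved in opposite directions.

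The ligands of leukocyte integrins, Icam1 and Vcam1, both fell. Vcam1, which binds integrins of the alpha-4 type, had 39.5, 44.1 and 43.3 CPM in control and 2.04, 1.84 and 1.52 CPM in the knockout-labelled libraries. It was 23.4-fold lower (log2 fold change -4.55, SE 0.12, adjusted p = 7.75e-09 in edgeR). Icam1, the ligand of the integrin LFA-1, was low in all libraries, with 94, 85 and 117 counts in control against 16, 10 and 26 in those labelled knockout. That is 2.54, 2.41 and 2.81 CPM against 0.45, 0.27 and 0.71 CPM. The groups did not overlap, but the coefficient of variation in the knockout-labelled libraries was 46.2%, where counting alone gives 24.0%. Icam1 was 5.40-fold lower, with a log2 fold change of -2.43 and the widest error of the set (SE 0.39, 95% interval -3.32 to -1.55, adjusted p = 0.00044 in edgeR). A model on the opposite strand, Gm47079, covers 511 of the 4360 exon bases of Icam1 and itself had 52 counts over the control libraries and 14 over the others. Without a stated strand setting its reads cannot be told apart from those of Icam1.

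Mcam, Bcam and L1cam, 3 immunoglobulin-type proteins known from endothelial, laminin-binding and neural adhesion, fell together. Mcam, or CD146, an adhesion molecule of endothelium and melanoma, had 33.6, 32.7 and 34.6 CPM in control and 5.01, 5.18 and 5.198 CPM in the knockout-labelled libraries. It was 6.56-fold lower (log2 fold change -2.71, SE 0.08, adjusted p = 1.31e-08 in edgeR). L1cam, a neural adhesion molecule often found at the invasive edge of carcinomas, had 56.4, 56.5 and 55.5 CPM in control and 9.57, 9.24 and 10.4 CPM after. L1cam was 5.76-fold lower, or -2.53 on the log2 scale (SE 0.07, edgeR adjusted p = 7.84e-09), close to the value of Mcam. The difference between the 2 genes was not tested. Bcam, the Lutheran glycoprotein, a receptor for laminin alpha-5, had 14.4, 16.8 and 13.1 CPM in control and 5.12, 5.61 and 4.95 CPM in the knockout-labelled libraries. It was 2.82-fold lower (log2 fold change -1.50, SE 0.14, adjusted p = 1.29e-05 in edgeR).

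Cadm1, a nectin-like molecule that holds epithelial cells together and is known as a tumour suppressor of lung cancer, was the second member to rise. It had 161, 158 and 151 CPM in control and 200.2, 211 and 209.7 CPM in the knockout-labelled libraries. The groups were separate, and the rise was 1.32-fold (log2 fold change 0.40, SE 0.04, adjusted p = 1.67e-05 in edgeR). It lay at percentile 68.8 of all log2 fold changes. Mcam and Icam1, which fell, are on chromosome 9 as Cadm1 is, and a part of chromosomal position was not tested.

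**Figure D2:**
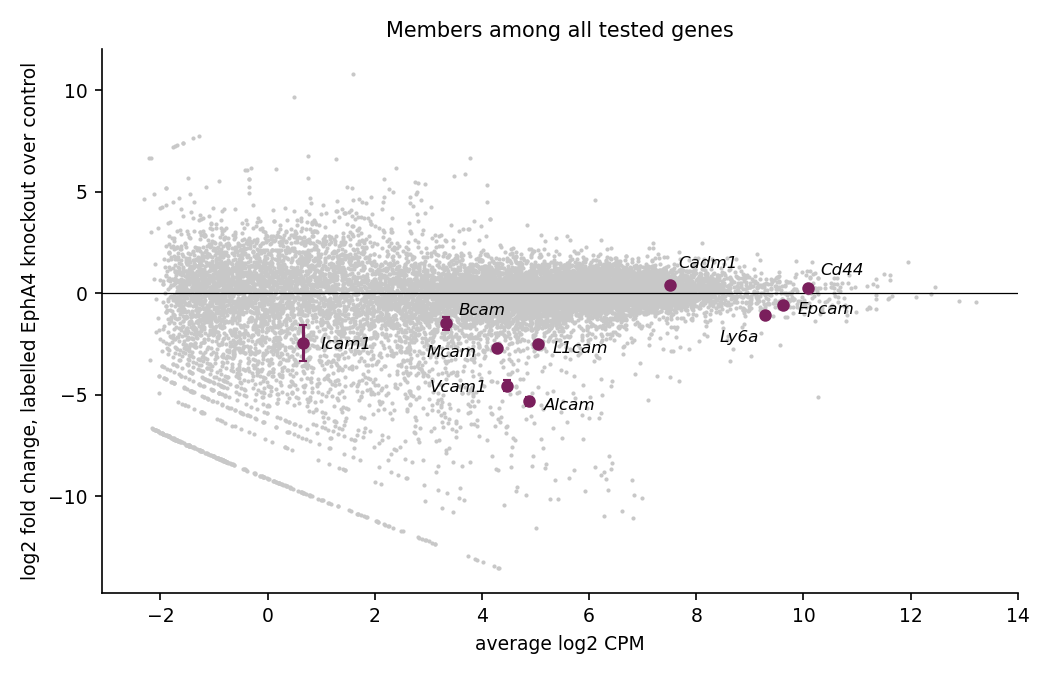
Log2 fold change of the knockout-labelled over the control libraries against the average log2 CPM. Grey points are the 15199 tested genes and purple points are the members with 95% intervals. Alcam and Vcam1 lie lowest of the members, while Cd44 and Cadm1 lie just above 0.

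In the knockout-labelled cells 3 members, Cd44, Epcam and Ly6a, were among the most abundant transcripts, as in control. In mean CPM they lay at percentiles 99.1 to 99.3 of all tested genes in control and 97.6 to 99.5 in the knockout-labelled libraries. Alcam went from percentile 73.5 to 24.2, Vcam1 from 66.3 to 26.4, L1cam from 73.0 to 41.9 and Mcam from 61.0 to 35.5. Icam1, at percentile 25.9 in control, was at 13.5. These percentiles rank CPM, which are not corrected for transcript length.

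Per length of annotated exons, the order in control was Ly6a, Epcam, Cd44, Cadm1, Mcam, Alcam, L1cam, Vcam1, Bcam and Icam1. Ly6a had 706 ± 22.9 RPKM (CPM per kilobase of exon, SD, n = 3), Epcam 434.5 ± 13.9 and Cd44 146 ± 6.05. Each neighbour in that order was separate in all 3 libraries except Vcam1 and Bcam, at 4.77 ± 0.278 and 4.61 ± 0.59 RPKM, which overlapped. In the knockout-labelled libraries the first 4 places were the same. Ly6a was at 333 ± 20.9, Epcam at 285.5 ± 7.25, Cd44 at 175 ± 3.56 and Cadm1 at 19.8 ± 0.557 RPKM. Bcam then stood ahead of Mcam and L1cam, and Alcam had dropped to ninth place at 0.20 ± 0.03 RPKM. Bcam and Mcam overlapped there, at 1.63 ± 0.107 and 1.53 ± 0.031 RPKM, as did Vcam1 and Alcam. Cd44 made up 10.9% of the summed RPKM of the 10 members in control and 21.4% in the knockout-labelled libraries, while Ly6a went from 52.8% to 40.7%. The sum itself was 1322 to 1364 RPKM in control and 800.3 to 838 RPKM in the knockout-labelled libraries.

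**Figure D3:**
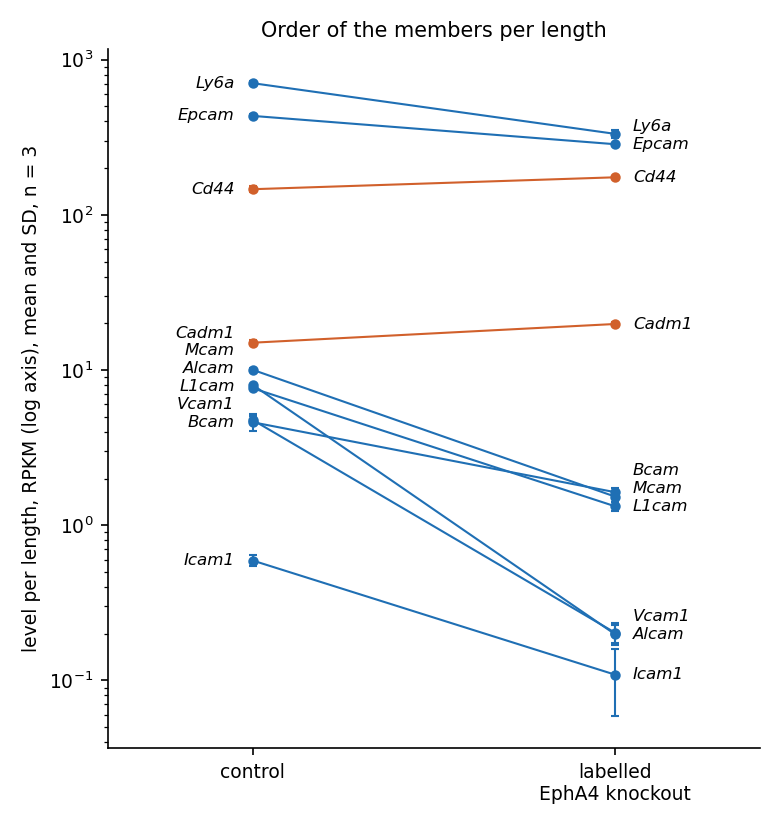
Mean level per length of each member in control and in the knockout-labelled libraries, in RPKM on a log axis, with SD over 3 libraries. Orange lines rise and blue lines fall. The line of Alcam crosses those of L1cam, Vcam1 and Bcam, while the 4 highest members keep their order.

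The spread between libraries of a group was small beside these differences. Coefficients of variation of the members ran from 0.911% to 12.8% in control and from 2.04% to 46.2% in the knockout-labelled libraries, with medians of 3.38% and 6.27%. Over all tested genes the medians were 7.27% and 7.26%. In 3 of the 10 members in control, Alcam, L1cam and Icam1, the spread was at or under what counting alone gives, and so it was for Mcam and Bcam in the knockout-labelled libraries. For Alcam in control the coefficient of variation was 0.914%, where counting alone gives 2.15%.

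Markers of other cell types were looked at beside Icam1, Vcam1 and Mcam, which stromal and endothelial cells also express. All 6 tested of 10 fibroblast and pericyte markers were lower in the knockout-labelled libraries, beside 38.8% of all tested genes called lower and 32.7% called higher. Col1a1, Col3a1, Pdgfrb, Dcn and Rgs5 had at most 7 counts in any knockout-labelled library and passed the filter through control alone. They could thus only be called lower, and their number is no test of a direction. Pdgfra had 349, 319 and 406 counts in control and 56, 57 and 57 in the others. The summed level of the 10 was 50 to 53.5 CPM in control and 2.01 to 2.25 CPM in the knockout-labelled libraries. Of the 10, Lum had 0 counts in every library, and Col1a2, Acta2 and Cspg4 did not pass the filter either. Col1a2 had 4, 0 and 1 counts in control and 8, 11 and 10 in those labelled knockout. Acta2 had 5, 2 and 11 counts in control and 0, 0 and 4 in the others. Cspg4 had 4, 6 and 11 against 2, 7 and 4. Of 8 endothelial markers, Cdh5 alone passed the filter and was not called, Emcn and Cldn5 had 0 counts in every library, and the sum was 1.46 to 1.82 CPM in control and 0.67 to 1.24 CPM in the knockout-labelled libraries. Of 8 leukocyte markers 1 was higher and 1 lower of 2 tested, with sums of 22.0 to 24.9 and 11.8 to 13.2 CPM. The lower sum followed Cd68, which fell from 18.2 ± 1.32 to 4.24 ± 0.386 CPM (SD, n = 3 each). Csf1r rose from 4.72 ± 0.262 to 7.75 ± 0.699 CPM. Ptprc, not tested, had 3, 1 and 10 counts in control and 18, 16 and 7 in the others. Cd3e, Itgam and Adgre1 had 0 counts throughout. In bulk RNA fewer cells of a type and less RNA per cell cannot be told apart, and the part of the fibroblast and pericyte markers in the falls was not tested. The samples are cultures of a carcinoma line, and whether these transcripts came from other cells or from the MOC2 cells was not tested.

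The wider adhesion families were described from lists of genes other than the members. Of 33 other adhesion molecules of the immunoglobulin superfamily and of junctions, 19 were tested. Of these 13 fell and 6 rose, and the median was -0.62 on the log2 scale. The counts of this and the other lists stand against 38.8% of all tested genes called lower, 32.7% called higher and a median of -0.04. Listed genes near 0 in the knockout-labelled libraries, such as Nectin1 and Cd34, passed the filter through control alone and could only be called lower. Nectin1, which holds epithelial cells together at adherens junctions, had 378, 256 and 380 counts in control. None was counted in any knockout-labelled library, and with 3 counts taken as the floor of that group the level was at least 327-fold lower. Nectin2, a relative, fell from 176.9 ± 10.0 to 31.8 ± 4.00 CPM (SD, n = 3 each). Ceacam1, a member of a family with near-identical copies, fell from 4.63 ± 0.341 to 0.128 ± 0.114 CPM, and EphA4 knockout replicate 3 had 0 counts. Icam5, whose annotated exons also overlap Gm47079, fell from 5.45 ± 1.21 to 0.404 ± 0.165 CPM, in the direction of Icam1. Floors cover counting error only.

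Genes around CD44 went both ways: of 18 listed, 17 were tested, 8 rose, 5 fell and 4 were not called, with a median of 0.00, where 71.5% of all tested genes were called. Spp1, which encodes osteopontin, a secreted ligand of CD44, fell furthest, from 2407 ± 73.5 to 68.5 ± 2.73 CPM (log2 fold change -5.13, SE 0.05, adjusted p = 2.14e-10 in edgeR). Has2, an enzyme that makes hyaluronan, the other main ligand of CD44, rose 4.08-fold from 2.84 ± 0.205 to 11.6 ± 1.67 CPM. Transcripts of these 2 sources of ligand thus moved in opposite directions. Esrp2, a splicing factor that favours epithelial exons and is known to act on Cd44 transcripts, rose from 50.1 ± 2.66 to 101.9 ± 3.14 CPM, and Esrp1 rose by a log2 fold change of 0.38. Of the linkers that tie CD44 to actin, Rdx (0.58) and Msn (0.30) rose and Ezr fell (-0.37). Of the proteases that can shed CD44, Mmp14 fell from 219.5 ± 1.61 to 130.4 ± 3.68 CPM and Adam17 fell by 0.31 on the log2 scale, while Adam10 had a log2 fold change of -0.06 and was not called. Esrp1, Rdx, Msn, Ezr, Adam17 and Adam10 were chosen for their roles after their values were seen.

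Of 18 listed partners of the other members, 10 were tested, of which 7 fell, 2 rose and 1 was not called, with a median of -0.54, beside 38.8% lower and 32.7% higher among all tested genes. Integrin chains that bind ICAM-1 or VCAM-1 in leukocytes, Itgb2 and Itgb7, fell from 15.0 ± 1.13 to 1.95 ± 0.463 CPM and from 10.6 ± 0.205 to 1.03 ± 0.294 CPM (SD, n = 3 each). Their alpha chains Itgal and Itga4 did not pass the filter. Tspan8, a tetraspanin found in complexes with EpCAM, fell 11.2-fold, from 44.0 ± 2.35 to 3.92 ± 0.259 CPM. Lgals8, a galectin that binds ALCAM, fell from 72.1 ± 2.11 to 29.7 ± 1.02 CPM. Lama5, the laminin chain that Bcam binds, fell by 0.68 on the log2 scale and Itgb1 had a log2 fold change of 0.01 and was not called, both chosen after their values were seen.

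The Ly6 and uPAR family, to which Ly6a belongs, had 11 of 22 listed genes tested, of which 8 fell, 2 rose and 1 was not called (median -0.88), beside the same 38.8% and 32.7% of all tested genes. Ly6c1 fell from 937 ± 19.6 to 240 ± 10.3 CPM (SD, n = 3 each), Ly6c2 from 3.53 ± 0.416 to 0.924 ± 0.545 CPM, and Ly6g from 20.4 ± 2.45 to 0.456 ± 0.242 CPM. These neighbours on chromosome 15 are close in sequence, and single members are uncertain. Lynx1, a family member that modulates acetylcholine receptors, fell from 6.61 ± 0.896 to 1.14 ± 0.12 CPM. The 2 that rose, Plaur, the urokinase receptor, and Psca, had log2 fold changes of 1.06 and 1.22 and were named after their values were seen.

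Other genes used as tumour stem cell markers did not move one way. Of 20 listed, 15 were tested, 10 fell, 4 rose and 1 was not called (median -0.69), again beside 38.8% lower and 32.7% higher among all tested genes. Cd34, a sialomucin of blood and hair follicle stem cells, had 2772, 2666 and 3314 counts in control against 0, 0 and 7 in those labelled knockout, or 76.6 ± 2.56 against 0.064 ± 0.11 CPM. Ngfr, a neurotrophin receptor, fell from 5.62 ± 0.386 to 0.256 ± 0.058 CPM, and Lgr6, an R-spondin receptor, from 16.1 ± 1.30 to 4.27 ± 0.445 CPM. Sox2, a pluripotency factor also active in squamous carcinoma, rose 3.69-fold, from 7.15 ± 0.998 to 26.4 ± 1.11 CPM. Bmi1, Itga6 and Cd24a, named after their values were seen, rose as well, by log2 fold changes of 1.048, 0.54 and 0.49. Cd44, Bmi1, Sox2, Itga6 and Cd24a were therefore higher, and Alcam, Ly6a, Epcam, Cd34, Ngfr and Lgr6 lower, in the same libraries. The other list genes called lower were Procr, Sox9, Klf4, Dclk1, Prom1, Aldh1a1 and Aldh1a3, also named after their values were seen.

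**Figure D4:**
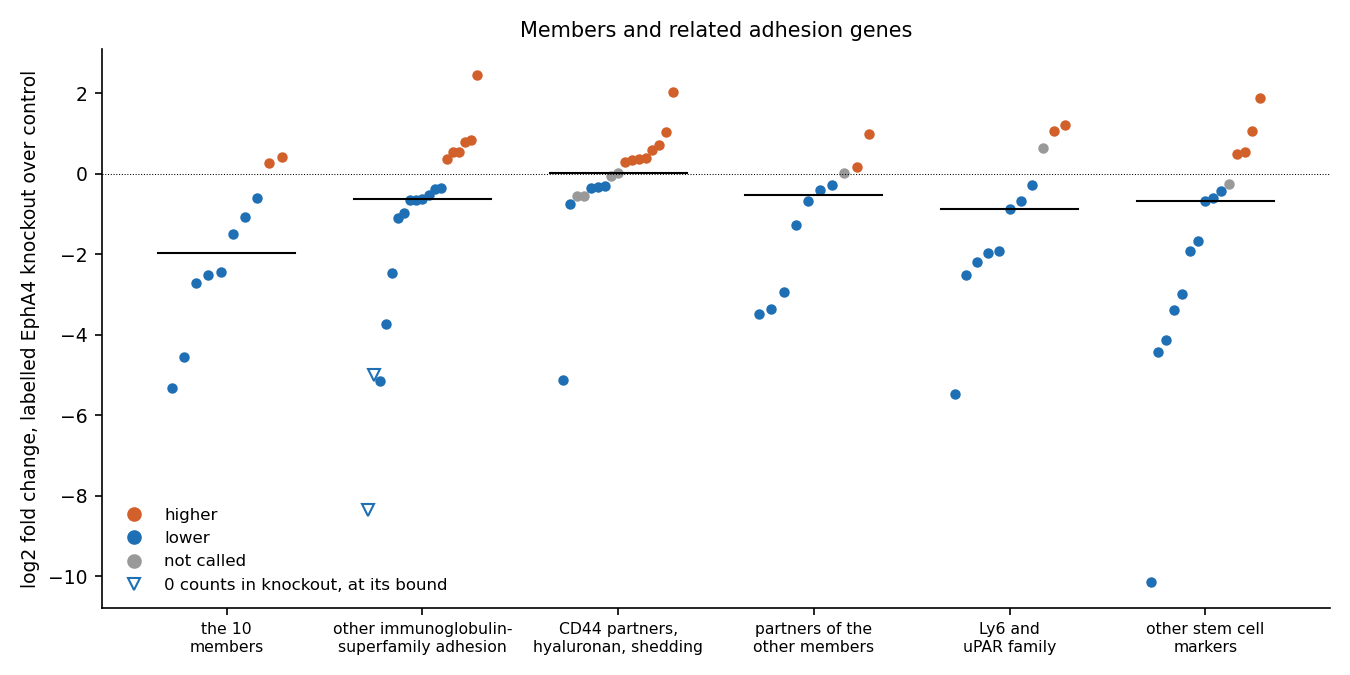
Log2 fold change of every tested gene in the member set and in 5 lists of related genes, knockout-labelled over control. Orange and blue points were called higher and lower, grey points were not called, black lines are medians and open triangles mark genes with 0 counts in the knockout-labelled libraries at their bound. The median of the members is the lowest of the 6 sets and that of the CD44 partners is at 0.00. All sets were chosen with earlier results of these data known.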

How the data were processed

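PolyA-selected RNA of 6 MOC2 samples was sequenced. The deposited table holds unnormalized counts by gene symbol. The submitters' processing notes name STAR and GRCm39, without versions. For the counting tool, strand setting and annotation, the choice is not given in the sources used here. Of the 55418 symbols, 55341 are in GENCODE mouse release M21 (an earlier build), which gave exon lengths, chromosomes and overlapping models, and the transcripts for the comparison of 50-base stretches.

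Counts were filtered with filterByExpr (15199 genes kept of 28042 with any count), scaled by TMM and tested with edgeR 4.0.16 (glmQLFit, glmQLFTest) under R 4.3.3 in a design of group alone. Two-sided p-values were adjusted by Benjamini-Hochberg over all tested genes, with a threshold of 0.05. Each SE was taken from F, as the size of the log2 fold change over its square root, and the 95% interval uses the t quantile of the fit. CPM are TMM-scaled. Summed marker and Ly6 levels use library totals. RPKM are CPM per kilobase of merged exons. The named list genes are up to 4 called genes per list, ranked by size of change, where the average log2 CPM is 1 or more. Genes named beside this rule are marked in the text. The members and lists were chosen with earlier results of these data known. Alternatives used limma 3.58.1 and DESeq2 1.42.0 among others. The scripts were tested on simulated counts. At changes of 1.5-fold, 2-fold, 4-fold and 32-fold, 21, 29, 40 and 50 of 50 genes each were recovered, with 5.41% false calls. Far fewer genes were changed there than were called in these data, so these rates need not hold here. Figures were drawn with matplotlib 3.10.9.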

Additional observations from a re-analysis of the deposited data

How the results depend on the processing

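The call and direction of the members held in all 139 values computed under the alternatives, with a largest adjusted p of 0.0148. These were 3 other scalings, testing every counted gene, requiring 5 CPM in 3 libraries (which left Icam1 untested), DESeq2, limma-voom, a replicate block and each library left out. The log2 fold change of Cd44 ran from 0.19 to 0.33, of Cadm1 from 0.33 to 0.47, of Alcam from -5.40 to -5.23 and of Icam1 from -2.78 to -2.13. All 277 values of the 20 named list genes kept direction and call. Requiring an absolute log2 fold change of at least 1 left 7 members lower and 0 higher, and 4630 genes called, 1569 higher and 3061 lower. It also moved 8 of the 11 counts in related lists that changed by over 1.5 times, the others being the counts of higher genes with no filter (1 partner, 1 Ly6 gene) and with the 5 CPM filter (1 Ly6 gene).

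Same-numbered samples showed little shared deviation across groups (r = -0.00286, 0.0291 and 0.00829), so no pairing by number was seen. Such values cannot exclude that same-numbered samples were prepared together. With the replicate block 10340 genes were called, and 8 members remained lower and 2 higher. Leaving out 1 library at a time gave 10040 to 11340 called genes. Apart from the fold threshold, whose counts stand above, the share of higher calls ran from 43.4% to 49.5%, and the median over all genes from -0.05 to 0.03. Icam1, with 10 to 26 counts in the knockout-labelled libraries, is the member whose size depth limits most.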
